A study of Mus musculus with 2 samples.

Results

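Erythropoietin receptor signalling was described through 9 genes: the receptor gene Epor, the kinase gene Jak2, the transcription factor genes Stat5a and Stat5b, the kinase gene Lyn, the adaptor genes Sh2b3, Gab1 and Gab2, and the phosphatase gene Ptpn6. They were found by their gene identifiers, without version, in the deposited gene and transcript tables, and made up 9 of 43346 mouse gene entries and 36 of 103639 mouse transcripts. Polyadenylated RNA was sequenced from both fragment ends in G1E-ER4, a male mouse erythroid line that has no functional Gata1 of its own and carries GATA1 joined to the hormone-binding part of an estrogen receptor, which estradiol switches on. The labels hold 1 group, cells given 10 nM 17beta-estradiol over 24 h, in 2 libraries called biological replicates 1 and 2. They point to a single biosample record, so part or all of any difference between these libraries may be technical. The p-values measure only departure from counting error between the 2 libraries and include no estimate of replicate spread. Every value belongs to 1 engineered line with restored GATA1 activity. No untreated sample was analysed here, and the sources used here do not name the cytokines of the culture medium.

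Erythropoietin binds a receptor without kinase activity of its own. JAK2 sits on the receptor's cytoplasmic tail, is activated when the receptor is engaged, and phosphorylates tyrosines on the tail. STAT5A and STAT5B dock there, are phosphorylated, pair up and move to the nucleus. LYN is a SRC-family kinase that also acts on this receptor, GAB1 and GAB2 are docking proteins that carry the signal to the RAS and PI3K branches, and SH2B3 (also called LNK) and PTPN6 (SHP-1) damp it. Red cell precursors depend on this pathway for survival as they mature.

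Replicate 1 held 70451042 estimated counts, 5.09 times the 13841487 of replicate 2. Where a gene had no counts, the limit of 3 counts corresponded to 0.0426 CPM (counts-per-million) in the deeper library and 0.217 CPM in the shallower one. Of 11 erythroid markers, 10 reached 1 transcript-per-million (TPM) in both libraries, with Epb42 at 1.32 and 0.29 TPM, and their summed level was 233446 TPM in replicate 1 and 88995.6 TPM in replicate 2. The 4 globin genes made up 97.9% and 93.4% of these sums, while Gata1 was at 3037.95 and 2939.75 TPM and Klf1 at 664.76 and 2351.07 TPM. Because this line carries an introduced GATA1 fusion, the Gata1 level may include reads from it. How much it includes was not tested, so it is not a plain marker level. Of the other cell types' markers, 0 of 6 monocyte-macrophage, 0 of 5 mast cell, 0 of 6 lymphoid and 0 of 5 neutrophil genes reached 1 TPM in both, and their sums lay between 0.09 and 1.11 TPM. Of 5 megakaryocyte markers 3 did, with sums of 22.39 and 36.58 TPM, and Pf4 had no counts in either. The part of these marker differences in any difference between the libraries was not tested.

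A gene was called detected at 1 TPM or more in both libraries. Of the 9 genes 8 were detected, and Gab2 was not, against 17.2% of all mouse gene entries. By mean TPM ± SD (n = 2) the order was Sh2b3 (117 ± 79.9), Epor (87.4 ± 12.2), Stat5b (48.5 ± 16.6), Lyn (35.9 ± 8.91), Gab1 (9.85 ± 7.10), Jak2 (8.03 ± 1.98), Ptpn6 (3.47 ± 3.11), Stat5a (3.13 ± 1.07) and Gab2 (0.84 ± 0.566). The median mean level of detected genes was 18.6 TPM, so the receptor and 3 of its partners lay above it and the kinase Jak2 below it. Neighbours in this order did not overlap across the libraries at 4 places: between Epor and Stat5b, Lyn and Gab1, Jak2 and Ptpn6, and Stat5a and Gab2. The other neighbouring pairs overlapped across the libraries, although Stat5b was above Lyn within each. For 3 genes, Lyn, Sh2b3 and Ptpn6, much of this level came from transcripts without a complete coding sequence in at least 1 library, and the order without those transcripts is given after their transcripts are described.

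**Figure D1:**
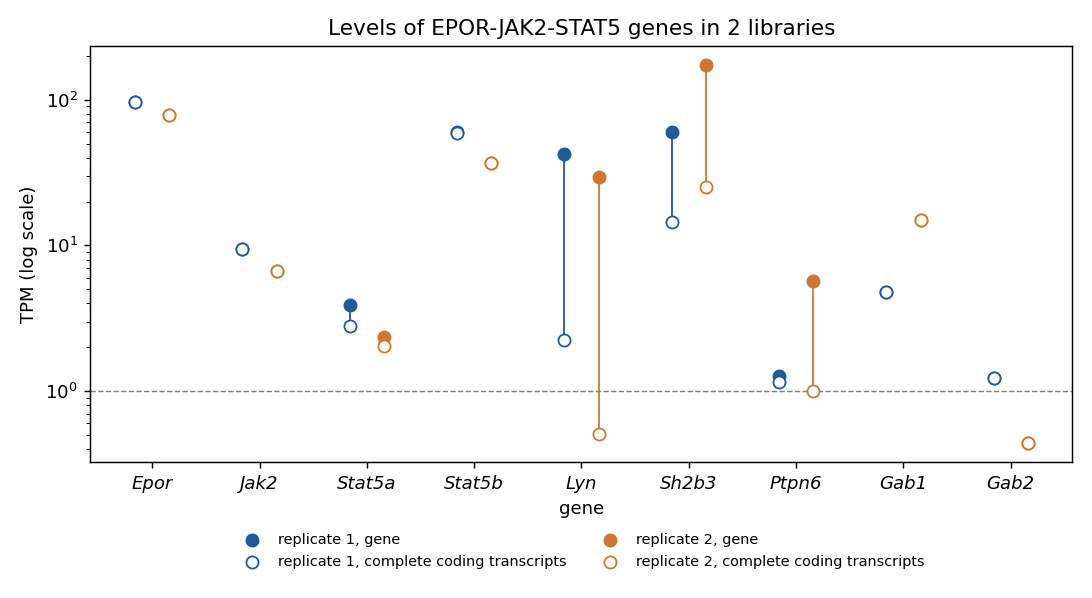
Level of each gene in TPM on a log axis, 1 point per library, with replicate 1 in blue and replicate 2 in orange; filled points are the whole gene, open points its complete coding transcripts, and the dashed line marks 1 TPM. The filled and open points coincide for Epor, Jak2, Gab1 and Gab2 and lie far apart for Lyn (42.16 against 2.24 TPM in replicate 1) and Sh2b3 (173.54 against 25.06 TPM in replicate 2).

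Epor (ENSMUSG00000006235.5), at chr9:21958897-21963506 on the minus strand of mm10, has 1 transcript in the deposited tables. It held 11102 estimated counts in replicate 1 and 1495 in replicate 2, or 96.01 and 78.70 TPM, ranks 1167 and 1386 of the mouse gene entries. The posterior mean levels, a second deposited estimate, were 94.96 TPM with a deposited interval of 93.2 to 96.7 in replicate 1, and 74.22 TPM with 70.4 to 78.0 in replicate 2, so the intervals did not overlap. By TMM-scaled counts replicate 2 stood at 0.903 of replicate 1, with an exact 95% counting interval of 0.855 to 0.953. In 2 libraries, the genes whose pair of TPM values lay nearest to that of Epor were Bnip2 (96.35 and 77.61 TPM), Tmpo (95.89 and 80.42 TPM) and Psme1 (94.04 and 76.82 TPM), at distances of 0.0207, 0.0312 and 0.0459 on the log2 scale.

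The promoter of Epor is shown because it holds words of the kinds bound by GATA1, the factor that estradiol switches on in these cells, and by KLF1, another erythroid factor. The bases before the RefSeq start (GRCm38.p6, chr9:21963577-21963826, minus strand, read 5′ to 3′) are printed with capitals for AGATAA and CACCC on either strand.
Epor promoter: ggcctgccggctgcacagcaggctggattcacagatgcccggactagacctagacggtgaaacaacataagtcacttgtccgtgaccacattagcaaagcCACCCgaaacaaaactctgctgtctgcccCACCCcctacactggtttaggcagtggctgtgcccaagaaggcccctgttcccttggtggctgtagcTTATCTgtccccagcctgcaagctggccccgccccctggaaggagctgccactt
The GATA words searched on both strands were AGATAA, its variant TGATAA, the word AGATAG and its variant TGATAG. The first of these words is present once, on the opposite strand, 54 bases before the start. CACCC is present at 150 and 121 bases before the start. Over windows from 250 bases before to 50 bases after a start, 29.8% of 32851 RefSeq promoter windows held a GATA word on either strand and 57.5% held CACCC. Among 10 windows of 7 of the 9 genes, 1 held a GATA word, that of Epor, and 6 held CACCC. TTCNNNGAA, the word that STAT proteins bind, was in 2 windows, which overlap and are both of Gab1. Over all windows 8.30% held it. These matches are letters in a window and no binding was measured.

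Among 12 ligand and receptor genes of the same and related signalling routes, 4 were detected. The erythropoietin gene Epo, the stem cell factor gene Kitl and the thrombopoietin gene Thpo were at 0 counts in both libraries, and so was the lowest receptor gene, Csf3r. The highest was Csf2rb, the shared chain of the interleukin-3, interleukin-5 and GM-CSF receptors, at 1153.91 TPM in replicate 1 and 4810.96 TPM in replicate 2. Csf2rb was therefore 12.02-fold above Epor in replicate 1 and 61.13-fold above it in replicate 2. Csf2rb2, another gene of this list, was at 325.13 and 394.32 TPM. Estimated counts were fractional for both, 366919.2 and 249224.93 for Csf2rb, and 99976.8 and 19757.07 for Csf2rb2. Sharing of reads between Csf2rb and Csf2rb2 was not tested. The log2 TPM ratio of Epor to Csf2rb, with a pseudocount of 0.1 as in all log2 ratios here, averaged −4.76 ± 1.66 (SD, n = 2). The sign was the same in both libraries, while the size moved with Csf2rb. Of the 5 genes tested in this list, Csf2rb was the 1 called different between the libraries by the rule described further on. Over all genes tested, 47.8% were called.

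Jak2 (ENSMUSG00000024789.8; chr19:29251828-29313080, plus strand) held 3170 and 363 estimated counts, or 9.43 and 6.63 TPM. All of it was assigned to the complete coding transcript Jak2-202 in both libraries. The deposited intervals, 9.004 to 9.652 and 5.644 to 6.926 TPM, did not overlap. Within its family Jak2 was a small part of the summed TPM, 3.13% in replicate 1 and 1.96% in replicate 2. Jak1, which serves interferon and other cytokine receptors, was at 271.84 and 316.89 TPM, Tyk2 at 17.28 and 8.51 TPM, and Jak3, the partner of the common gamma chain and lowest of the family, at 2.39 and 5.47 TPM. The log2 ratio of Jak2 to the other 3 together was −5.28 ± 0.48 (SD, n = 2). Most of the Jak1 level, however, came from models without a complete coding sequence. Over complete coding transcripts alone Jak1 was at 21.09 and 6.27 TPM, Jak2 made up 18.9% and 24.7% of the family, and the log2 ratio was −1.84 ± 0.35.

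Stat5a and Stat5b are neighbouring paralogs that point away from each other on chromosome 11, with 8626 bases between them. Stat5b (ENSMUSG00000020919.7; chr11:100780731-100850724, minus strand) held 19981.3 and 2024.73 estimated counts, or 60.22 and 36.72 TPM. Stat5a (ENSMUSG00000004043.10; chr11:100859351-100885169, plus strand) held 739.7 and 92.27 estimated counts, or 3.89 and 2.37 TPM. Stat5b was 15.5-fold above Stat5a in each library, and the log2 ratio of Stat5a to Stat5b was −3.92 in replicate 1 and −3.90 in replicate 2, a mean of −3.91 ± 0.01 (SD, n = 2). Both genes were lower in TPM in replicate 2, so the ratio varied less than either level. Stat5b was also the highest of the 7 STAT genes, with 44.4% and 41.2% of their summed TPM, and Stat5a held 2.87% and 2.66%. Stat4, which serves interleukin-12 signalling in lymphocytes, was at 0 counts in both libraries.

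The 2 STAT5 genes are alike enough to share reads, and the sequences below show where they can and cannot be told apart. Their coding sequences of 2379 bases in Stat5a-201 and 2358 in Stat5b-201 were identical at 2125 of 2394 aligned columns, or 88.8%. The longest identical stretch ran for 324 coding bases over 3 exons and spanned 961 bases of the genome in either gene. Its first 105 bases are in capitals below after 15 bases of flank, at chr11:100874008-100874127 on the plus strand for Stat5a and chr11:100798597-100798716 on the minus strand for Stat5b, from GENCODE M21 transcripts on GRCm38 (mm10).
Stat5a stretch: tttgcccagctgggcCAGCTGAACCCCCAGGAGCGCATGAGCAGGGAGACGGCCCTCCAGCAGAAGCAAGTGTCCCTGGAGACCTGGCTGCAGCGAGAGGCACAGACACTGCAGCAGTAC
Stat5b stretch: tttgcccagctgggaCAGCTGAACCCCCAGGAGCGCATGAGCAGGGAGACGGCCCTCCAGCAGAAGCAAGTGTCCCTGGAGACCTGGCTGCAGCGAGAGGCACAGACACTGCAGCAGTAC
The last 90 coding bases before the stop codon, where the proteins' tails differ, lie at chr11:100883904-100883993 (plus strand) and chr11:100783099-100783188 (minus strand).
Stat5a coding end: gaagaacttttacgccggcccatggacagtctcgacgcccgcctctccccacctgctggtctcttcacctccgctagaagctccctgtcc
Stat5b coding end: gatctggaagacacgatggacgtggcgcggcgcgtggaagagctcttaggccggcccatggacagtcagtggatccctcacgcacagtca
Of the 50-base words of Stat5a-201, 15.8% also occur in a Stat5b transcript, and of those of Stat5b-201, 12.1% occur in a Stat5a transcript. For 100-base words the shares were 6.99% and 5.34%. The sources used here do not give the read length. The deposited posterior SD of the count was the same for both genes, 7.88 counts in replicate 1 and 2.39 in replicate 2, against 739.7 and 92.27 counts for Stat5a, the smaller of this pair. The last exons of Stat5a also overlap exons of Stat3 on the opposite strand (6389 and 546 counts). Whether counting used strand, which would separate them, was not given in the sources used here.

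Which Stat5a transcript led differed between the libraries. In replicate 1 Stat5a-203 held 64.58% of the gene's TPM (598.46 counts, 2.51 TPM) and Stat5a-201 held none. In replicate 2 Stat5a-201 held 85.74% (85.32 counts, 2.03 TPM) and Stat5a-203 held none. By posterior means the split was less sharp in replicate 2, with 54.6% for Stat5a-201 and 5.44% for Stat5a-203. In replicate 1 those shares were 1.14% and 60.6%. Both are complete coding models and start at different first exons, at 100859351 for Stat5a-201 and 100860484 for Stat5a-203. The deposited intervals of Stat5a-203, 2.03 to 2.78 TPM in replicate 1 and up to 0.469 TPM in replicate 2, did not overlap, and nor did those of Stat5a-201, up to 0.135 TPM and 1.12 to 2.21 TPM. The short partial coding model Stat5a-206, of 617 bases, held 24.15% and 8.48%. Over complete coding transcripts together Stat5a was at 2.78 and 2.03 TPM. Stat5b, by contrast, was assigned almost wholly to Stat5b-201, with 97.76% and 100% of its TPM, and the log2 ratio of the paralogs over complete coding transcripts was −4.23 ± 0.17 (SD, n = 2).

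**Figure D2:**
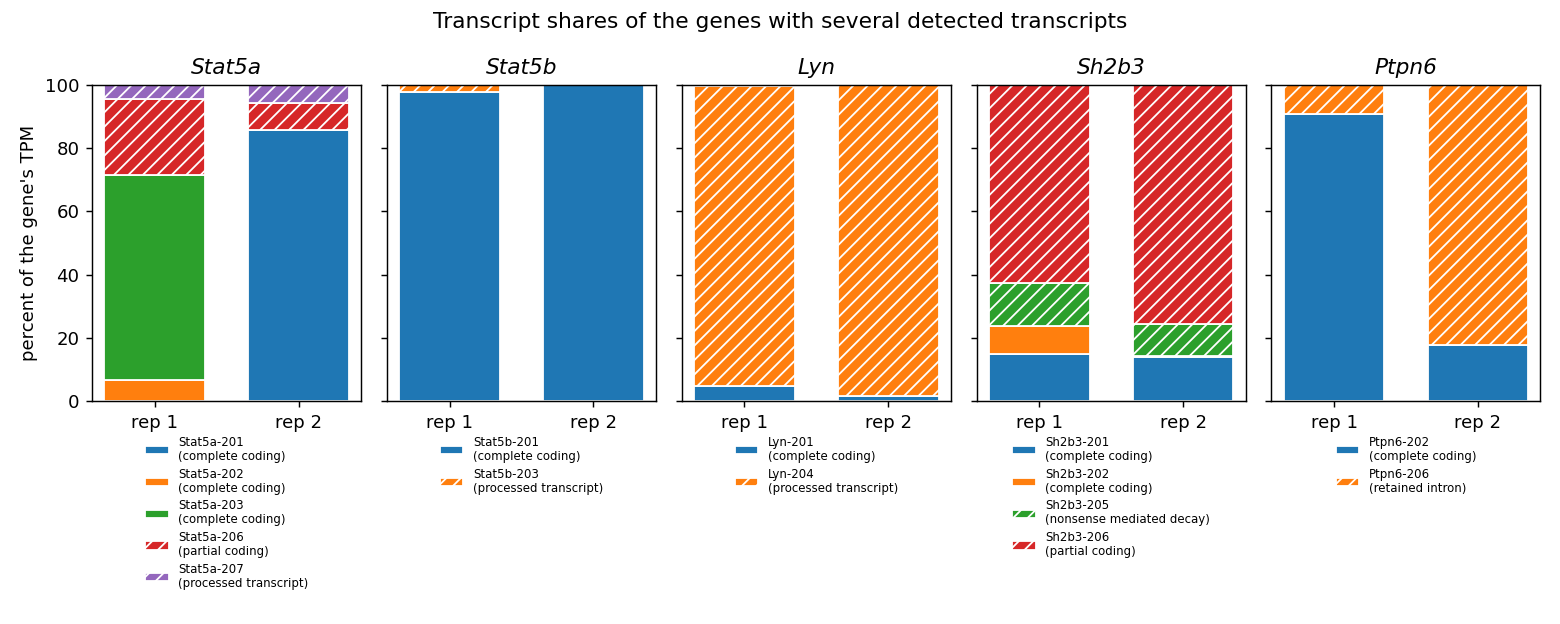
Percent of each gene's TPM assigned to each transcript, as stacked bars for replicate 1 and replicate 2, with hatching for models that are not complete coding transcripts; transcripts under 1% are not all visible. The Stat5a and Ptpn6 bars change their leading transcript between the libraries, while Lyn is led by Lyn-204 (94.71% and 98.27%) and Sh2b3 by Sh2b3-206 (62.60% and 75.60%) in both.

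Lyn (ENSMUSG00000042228.10; chr4:3678115-3813122, plus strand) held 1982 and 200 estimated counts, or 42.16 and 29.56 TPM, with deposited intervals of 39.6 to 43.9 and 23.8 to 32.1 TPM. In both libraries nearly all of this TPM belonged to Lyn-204, a processed transcript of 687 bases with no annotated coding sequence, at 39.93 and 29.05 TPM. Its share was 94.71% and 98.27% of the gene's TPM, and 74.3% and 90.5% of its counts. The full-length coding transcript Lyn-201 was at 2.09 and 0.51 TPM, and complete coding transcripts together at 2.24 and 0.51 TPM (508.64 and 19.06 counts). Among 5406 detected protein-coding genes with more than 1 transcript, complete coding models held under 10% of the TPM in both libraries for 9.38%. Lyn was the 1 of the 6 members with several transcripts for which they did.

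Lyn-204 shares most of the first exon of the coding transcripts, and their first coding exon. It then runs on for 315 bases that are intronic in the coding transcripts. Among the annotated Lyn transcripts, only Lyn-204 itself has the start of this stretch in an exon. Of the 50-base words of Lyn-204, 50.9% also occur in Lyn-201 or Lyn-202. An exon of the long noncoding RNA gene Gm26857 overlaps a Lyn exon on the opposite strand and held 76 and 52 counts.

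Within the SRC family Lyn held 89.97% and 88.40% of the summed TPM, with Fyn next at 3.36 and 2.50 TPM and Fgr at 0 counts in both. The log2 ratio of Lyn to the other genes of the family was 3.02 ± 0.17 (SD, n = 2), but over complete coding transcripts it turned to −1.41 ± 1.84, with −0.11 in replicate 1 and −2.71 in replicate 2. On that scale Lyn held 48.1% of the family in replicate 1 and 11.6% in replicate 2, where Fyn held 56.9%. Lyn led the SRC family on the scale that counts Lyn-204, and on the other scale in replicate 1 by a smaller margin and not in replicate 2.

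Sh2b3 (ENSMUSG00000042594.12; chr5:121815488-121837646, minus strand) held 6585 and 2232 estimated counts, or 60.52 and 173.54 TPM. The deposited intervals were 57.2 to 62.6 TPM and 153 to 175 TPM, with replicate 2 well above replicate 1. The leading model was Sh2b3-206, a partial coding model of 642 bases whose coding sequence has no annotated end, at 37.89 and 131.21 TPM. It held 62.60% and 75.60% of the gene's TPM but 19.4% and 33.7% of its counts. Of its 642 bases, 509 lie in the first coding exon, which Sh2b3-201 also has, and 133 lie in upstream exons that Sh2b3-201 does not have, while 92.6% of its 50-base words also occur in other Sh2b3 transcripts. The complete coding transcript Sh2b3-201 was at 9.13 and 24.49 TPM (1477.98 and 649.11 counts). Sh2b3-202, also a complete coding transcript, went the other way, at 5.28 and 0.42 TPM (1472.13 and 19.31 counts). Sh2b3-205, a model annotated for nonsense-mediated decay, held 13.51% and 9.95% of the gene's TPM. Its share of the gene's counts, 35.6% and 36.2%, was the largest of any Sh2b3 model in both libraries. Complete coding transcripts together were at 14.46 and 25.06 TPM, 23.9% and 14.4% of the gene. Exons of Atxn2 overlap Sh2b3 exons on the opposite strand, with 10060 and 4257 counts.

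Against its family, Sh2b3 held 58.2% and 75.7% of the TPM and Sh2b1, an adaptor of receptor kinases and JAK2, held 41.8% and 24.3%, while Sh2b2 was the lowest with 2 and 0 counts. The log2 ratio of Sh2b3 to the other two was 1.06 ± 0.82 (SD, n = 2), above 0 in both libraries. It turned to −1.37 ± 0.31 over complete coding transcripts, where Sh2b1 was the higher in both libraries, and to −0.23 when TMM-scaled CPM replaced TPM.

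Ptpn6 (ENSMUSG00000004266.11; chr6:124720707-124738714, minus strand) was the most thinly counted gene after Gab2 in replicate 2, with 166 and 36 estimated counts and 1.27 and 5.67 TPM. In replicate 1 the complete coding transcript Ptpn6-202 held 90.86% of the TPM, and in replicate 2 the retained-intron model Ptpn6-206, of 371 bases, held 82.34%. The counts behind that switch were 1.75 and 12.60 for Ptpn6-206 and 164.25 and 23.40 for Ptpn6-202. Ptpn6-202 itself was close in the 2 libraries, at 1.15 and 1.00 TPM. It starts at 124733154, downstream of the starts of Ptpn6-201 (124738625) and Ptpn6-203 (124738714), to which 0 counts were assigned in both libraries.

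The deposited posterior mean level of Ptpn6 was far above its maximum likelihood level, 12.01 TPM (interval 2.00 to 27.5) in replicate 1 and 35.5 TPM (7.55 to 78.5) in replicate 2. Most of it sat on Ptpn6-211, of 120 bases, and Ptpn6-205, of 134 bases, which together had 0 counts and yet took 61.9% and 20.7% of the posterior mean TPM in replicate 1 and 56.2% and 20.5% in replicate 2. In the deposited tables length exceeded effective length by 152 bases in replicate 1 and 130 in replicate 2 for Epor, and those models are shorter than, or close to, that. Of 7444 detected genes, 0.0537% had a posterior mean at least 2 times the maximum likelihood level in both libraries, and Ptpn6 was 1 of those 4.

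Ptpn11, the related phosphatase SHP-2 that carries signals forward to RAS, was at 54.60 and 22.29 TPM. The log2 ratio of Ptpn6 to Ptpn11 was −3.64 ± 2.38 (SD, n = 2), with −5.32 in replicate 1 and −1.96 in replicate 2. Over complete coding transcripts it was −4.70 and −4.35, below 0 in both libraries on either scale and with a narrower spread.

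The docking adaptor genes Gab1 and Gab2 have 1 transcript each in the deposited tables. No 50-base word of either is found in the other gene's transcripts. Gab1 (ENSMUSG00000031714.8; chr8:80764438-80880519, minus strand) held 1569 and 786 counts, or 4.83 and 14.87 TPM. Gab2 (ENSMUSG00000004508.5; chr7:97081586-97308946, plus strand) held 498 and 29 counts, or 1.24 and 0.44 TPM. The deposited intervals did not overlap for either gene, at 4.54 to 5.01 and 13.03 to 14.98 TPM for Gab1, and at 1.12 to 1.33 and 0.281 to 0.586 TPM for Gab2. Gab1 was above Gab2 in both libraries, by 3.90-fold in replicate 1 and 33.8-fold in replicate 2. The log2 ratio of Gab2 to Gab1 was −3.34 ± 2.06 (SD, n = 2), the same in sign and unlike in size. Gab3, the lowest of the family, had 24 and 0 counts.

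**Figure D3:**
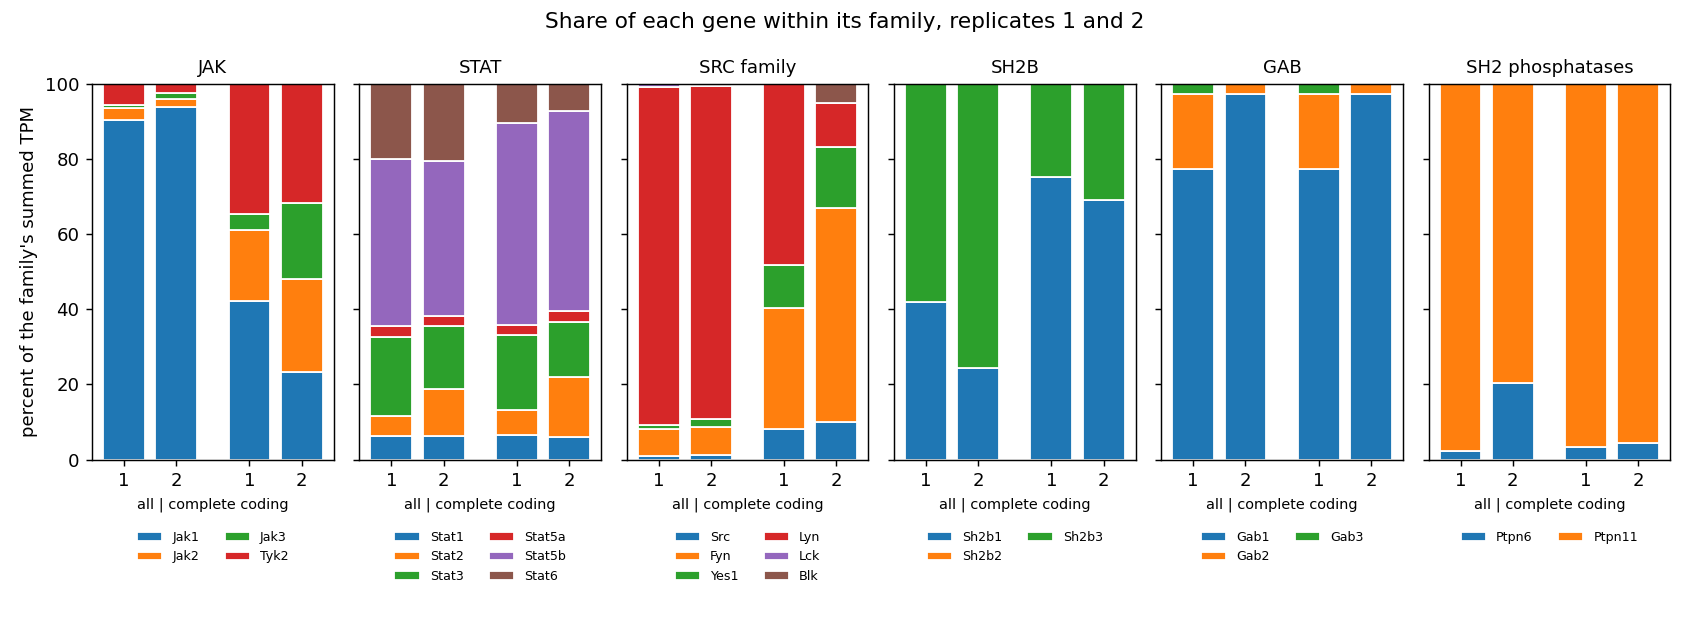
Share of each gene in the summed TPM of its family, in percent, for replicates 1 and 2; the left pair of bars counts all transcripts and the right pair complete coding transcripts only, and genes at 0 in both libraries are not drawn. The STAT and GAB bars keep their leading gene on both scales, while Jak1, Lyn and Sh2b3 lose most or part of their share on the right, where Lyn falls from 88.4% to 11.6% in replicate 2.

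The level order changed when only complete coding transcripts were counted. Epor, at 96.01 and 78.70 TPM, was then the highest of the 9 genes in both libraries, as it already was in replicate 1 over all transcripts. Stat5b followed at 58.87 and 36.72 TPM and Sh2b3 at 14.46 and 25.06 TPM. Epor, Gab1 and Gab2 have 1 deposited transcript each, a complete coding one, so their levels could not change on this scale. Lyn moved from the fourth place to near the bottom, with a mean of 1.38 TPM, and 7 of the 9 genes stayed at 1 TPM or more in both libraries. Leading models that were not complete coding ones in either library were found for 2 of the 6 members with several transcripts, Lyn and Sh2b3, against 29.5% of 5406 genes. Complete coding models held under 50% of the TPM in both libraries for the same 2, against 30.6%. The leading transcript was the same in both libraries for 4 of the 6, namely Jak2, Stat5b, Lyn and Sh2b3, and differed for Stat5a and Ptpn6, against 34.6% of 5519 genes whose leading transcript differed. These shares lie near those of all genes.

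To see how far the 2 libraries lay apart, counts were scaled by TMM and compared gene by gene with a two-sided exact binomial test, which compares the libraries and not conditions. A gene was called at a Benjamini-Hochberg adjusted p under 0.05 and a difference of at least 2-fold. Of the 9 genes 3 were called, against 47.8% of the 8884 genes tested. Gab2 was higher in replicate 1, where 29.8% of all genes were called, and Sh2b3 and Gab1 were higher in replicate 2, where 18.0% were. Gab1 was 3.36-fold higher in replicate 2 (exact 95% counting interval 3.08 to 3.66) and Sh2b3 was 2.27-fold higher (2.17 to 2.39), while Gab2 was 2.52-fold higher in replicate 1 (1.76 to 3.86). With Benjamini-Hochberg adjustment the exact binomial test gave adjusted p-values of 5.33e-142 for Gab1, 6.91e-212 for Sh2b3 and 4.19e-08 for Gab2. With total counts in place of TMM, Sh2b3 was under 2-fold (log2 0.79 against 1.19) and 2 of the 9 were called. That scaling moved the median log2 difference of all genes tested from −0.20 to −0.61.

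The other 6 genes lay within 2-fold. Stat5b and Lyn each stood at a log2 difference of −0.56 (replicate 2 over replicate 1), Jak2 at −0.38 and Epor at −0.15. All 4 had an adjusted p under 0.05 in the exact binomial test, as 7 of the 9 genes and 85.6% of all genes tested did. Stat5a, at −0.26 (adjusted p = 0.124 in the exact binomial test), and Ptpn6, at 0.56 (adjusted p = 0.0539), did not pass. The median size of the log2 difference was 0.56 over the 9 genes and 0.95 over all genes tested.

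**Figure D4:**
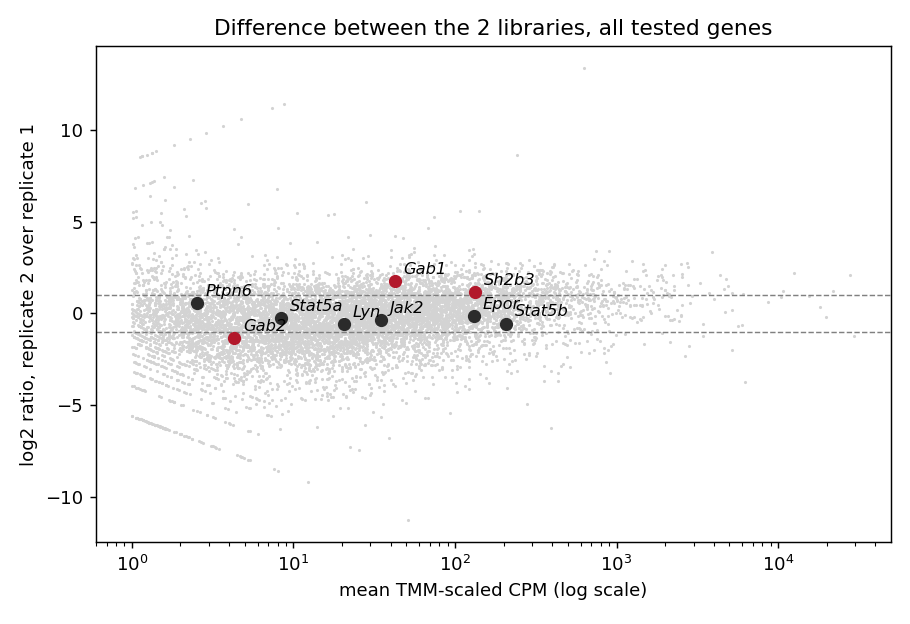
Log2 ratio of replicate 2 over replicate 1 against the mean TMM-scaled CPM on a log axis, 1 point per tested gene in grey, with the 9 genes named and the 3 called ones in red; dashed lines mark 2-fold. Gab1 and Sh2b3 lie above the upper line, Gab2 below the lower one, and the other 6 between them.

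The rest of the pathway was read from lists by role. Of 24 genes of the adaptor, RAS and PI3K branch, 22 were detected, with a median of 35.7 TPM, and 9 of the 23 tested were called different between the libraries, 3 higher in replicate 1 and 6 in replicate 2. The shares over all genes, for this and the next 2 lists, were 47.8% called, 29.8% higher in replicate 1 and 18.0% higher in replicate 2. The MAP kinase kinase gene Map2k2 was the highest of them (655.85 and 2248.97 TPM), and the phospholipase gene Plcg2 the lowest, with 7 and 0 counts. Of 15 other negative regulators 10 were detected, at a median of 7.78 TPM over the list, and 5 of the 14 tested were called, 3 higher in replicate 1 and 2 in replicate 2. Among them the STAT5-induced inhibitor gene Cish was the highest by mean TPM, at 205.48 and 210.72 TPM, and the leukocyte phosphatase gene Ptprc the lowest, with 0 and 2 counts. Of 15 known target genes of STAT5 or erythropoietin 14 were detected, at a median of 41.9 TPM, and 7 of the 14 tested were called, 1 higher in replicate 1 and 6 in replicate 2. Cish, Socs1, Socs2 and Socs3 are both targets and negative regulators here, so they were counted in both lists. The D-type cyclin gene Ccnd3 led the target list (1593.95 and 1980.03 TPM), and the cytokine gene Osm was its lowest, at 0.16 and 0.17 TPM. Of the families of the 9 genes, 4 of 4 JAK, 6 of 7 STAT, 2 of 8 SRC-family, 2 of 3 SH2B, 1 of 3 GAB and 2 of 2 SH2-domain phosphatase genes were detected.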

How the data were processed

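Both libraries were analysed as 1 group. Per the labels and the text deposited beside the tables, values were made on mm10 with GENCODE M4 from transcriptome alignments. The sources used here do not name the quantification tool or its strand setting. The deposited tables hold estimated counts, TPM and FPKM, the percent of a gene's TPM held by each of its transcripts, posterior mean versions, and TPM intervals whose level is not stated and which surround the posterior mean. Names and positions came from GENCODE M21 on the same assembly, where 32 of the 36 member transcripts had the deposited length. Those that differed were Epor-201 (1829 bases deposited, 1761 in M21), Gab1-201, Gab2-201 and Sh2b3-201. M21 has 8 further transcripts of the members, Epor-202 among them, that were not among those quantified. The positions given for the genes of the transcripts that differed in length are those of M21 and may differ from the models that were quantified. Entries that are not mouse genes (3 and 0 counts) were left out. A complete coding transcript is a protein-coding M21 model without a missing start or end; that measure was chosen after the data were seen.

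For the comparison of libraries across all genes, estimated counts were rounded, given TMM factors of 1.15 and 0.871 with edgeR 4.0.16 and tested at a mean CPM of at least 1 with an exact binomial test (scipy 1.17.1) and Benjamini-Hochberg adjustment. Log2 differences used a prior count of 0.5. Intervals cover counting error only. Alternatives included DESeq2 1.42.0 size factors. The scaling and the comparison of libraries were run on a simulated pair with counting error and set changes in some genes. That pair had no further spread between replicates, so it cannot show how the test behaves with such spread.

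The members and lists were chosen with earlier results of these data known. Named genes are the 9 members, the highest and lowest of each list, the genes of the ratios, the 3 nearest to Epor and transcripts with at least 10% of their gene's TPM. Kitl, Thpo, Epo, Fgr, Epb42, Pf4, Gata1, Klf1, Csf2rb2 and overlapping genes were named after their values were seen. No protein sequences were compared. An item the rule takes in is not reported here.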

Additional observations from a re-analysis of the deposited data

How the results depend on the processing

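No paired analysis was possible because the labels give 1 group. At a minimum of 5 TPM 5 of the 9 genes were detected in place of 8. The log2 ratio of Stat5a to Stat5b stayed below 0 at −3.57 with a pseudocount of 1, −3.95 with none, −3.67 with posterior means, −4.59 with TMM-scaled CPM, −3.97 with protein-coding transcripts and −4.23 with complete coding transcripts, the last an alternative chosen after seeing the data. Ptpn6 to Ptpn11 was −0.71 with posterior means. Jak2 to the other JAK genes was −2.42 with TMM-scaled CPM, −3.71 with protein-coding and −1.84 with complete coding transcripts. Lyn to the other SRC-family genes was 2.78 with a pseudocount of 1, 2.36 with posterior means and 1.24 with TMM-scaled CPM, and reversed to −1.81 with protein-coding and −1.41 with complete coding transcripts. Sh2b3 to Sh2b1 and Sh2b2 reversed to −0.23 with TMM-scaled CPM and −1.37 with complete coding transcripts. The cause was not tested. With 1 library left out, the ratios ranged from −3.92 to −3.90 for Stat5a, −4.79 to −1.88 for Gab2, −5.32 to −1.96 for Ptpn6, −5.62 to −4.94 for Jak2, 2.90 to 3.14 for Lyn, 0.47 to 1.64 for Sh2b3 and −5.93 to −3.59 for Epor, and 8 to 9 genes were detected. Of 27 alternative mean levels that use both libraries 23 moved by less than 1 SD. The others were Epor at 105.5 TPM when mitochondrial and globin genes were taken out of the scale, Lyn at 1.38 and Sh2b3 at 19.8 TPM over complete coding transcripts, and Ptpn6 at 23.8 TPM by posterior means. For Epor, Jak2, Gab1 and Gab2 the complete coding level is the gene level, so that alternative could not move. The SD rests on 2 libraries and is wide for genes that differ between them, such as Sh2b3 and Gab1. Of the 9 genes 3 were called between the libraries with DESeq2 size factors, without a count minimum, at 1.5-fold and with posterior means. A minimum of 10 CPM gave 2, since Gab2 was not tested, total counts gave 2, and a TPM ratio of at least 2 gave 4, with Ptpn6 added. Counting the leading transcript by posterior means, among protein-coding transcripts, or at 500 bases or more gave 5 of 6 genes with the same one in both libraries in place of 4. By posterior means the added gene was Ptpn6, led in both libraries by the short model Ptpn6-211, to which 0 counts were assigned. With 2 libraries of unequal depth, replicate 2 limits Gab2 and Ptpn6, which had 29 and 36 counts there.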
